A study of Mus musculus with 12 samples.

Results

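Guanylate-binding proteins (GBPs) and immunity-related GTPases (IRGs) are related families of interferon-inducible GTPases, and 10 of their genes were followed here among the 48795 genes counted in mouse bone marrow-derived macrophages (BMDMs). The members were Gbp2, Gbp3, Gbp5, Gbp6, Gbp7, Gbp9, Irgm1, Irgm2, Igtp and Iigp1. They were listed by name with earlier results of these data known, and each was found through its Ensembl identifier. A count test was made for 9 of them, because Gbp6 was below the filter on low counts in every library. The filter asked for more than 1.5 CPM, the count of a gene scaled to library size, in at least 2 of 12 libraries, and 11228 genes passed it. Of the 10 members, 7 were above that level in all 4 vehicle-treated libraries, whereas Iigp1 passed through the Acod1-/- libraries with PM alone.

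RNA was sequenced from BMDMs, which are macrophages grown from bone marrow cells in culture with the growth factor M-CSF, in 12 libraries with 2 for each of 6 groups. The labels give the strain of the WT cells as C57BL/6 and the methods as C57BL/6NJ, from male mice of 7 to 11 weeks in both genotypes. The Acod1-/- cells came from the line C57BL/6NJ-Acod1em1(IMPC)J/J, which carries an edited Acod1, the gene of the mitochondrial enzyme that makes itaconate. Cells of each genotype received vehicle, urban particulate matter (PM) at 20 μg/cm2 for 24 hours, or 4-octyl itaconate (OI) at 0.25 mM for 2 hours followed by the same PM (OI+PM). OI is a form of itaconate that crosses the cell membrane. No group received OI without PM. The labels do not say whether the duplicates came from separate mice or cultures, so p-values measure the spread between these libraries, which may be technical. WT and Acod1-/- mice were separate stocks, so genotype and stock cannot be told apart. The comparisons within a genotype share groups of libraries with each other.

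Interferons act through receptors, JAK kinases and STAT transcription factors that bind short motifs in the promoters of their target genes, and GBPs and IRGs are among the most strongly induced of these genes in macrophages. GBPs are large GTPases that assemble on pathogen vacuoles, on bacteria and near inflammasomes. IRGs fall into effectors such as Iigp1, which disrupt pathogen vacuoles, and the regulators Irgm1, Irgm2 and Igtp, which sit on the cell's own membranes and hold the effectors inactive there.

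The promoters of the members are shown because most members rose with PM and all that were tested fell when OI preceded it. RefSeq windows of GRCm38.p6, each running from 250 bases before the start site to 50 bases from it, were at hand for 7 members, namely Gbp2, Gbp3, Gbp5, Gbp7, Irgm1, Irgm2 and Igtp. Gbp6, Gbp9 and Iigp1 had no entry. Both strands were searched for an interferon-stimulated response element (ISRE)-like motif, which is GAAA, any 2 bases and a second GAAA, and for the gamma-activated site (GAS) motif TTCNNNGAA. Matches to each motif were counted on their own, and in no member did an ISRE-like match overlap a GAS match. All 7 members in the table held an ISRE-like match, against 3.99% of the 27025 genes in the table and 3.44% of its 32851 windows, and Gbp5, Gbp7, Irgm2 and Igtp also held a GAS match, against 9.55% of genes and 8.3% of windows. Both matches in a single window were found in 4 of these 7 members, in 0.54% of genes and in 0.454% of windows. The 7 members had 8 windows, and the second window of Gbp3 held no match. The start site of the Irgm2 window lies inside the annotated span of the gene, and no run of 20 bases after it in the window was found in a GENCODE transcript of Irgm2. A match is a run of letters and not a measured binding site. The 7 members belong to related families known as interferon-inducible, so these counts are not independent and are no result of the PM or OI treatment. The stretches below are parts of these windows, 5′ to 3′ along each gene, with the matches in capitals. Annotated exons covered 30 of the bases shown for Gbp2, 18 for Gbp3, 30 for Gbp5 and all 30 for Irgm1. They lie at chr3:142620543-142620631 (plus strand) for Gbp2, chr3:142559924-142560043 (plus) for Gbp3, chr3:142496734-142496929 (plus) for Gbp5, chr3:142530216-142530335 (plus) for Gbp7, chr11:48871428-48871457 (minus) for Irgm1, chr11:58214857-58214976 (plus) for Irgm2 and chr11:58199436-58199555 (plus) for Igtp.
Gbp2: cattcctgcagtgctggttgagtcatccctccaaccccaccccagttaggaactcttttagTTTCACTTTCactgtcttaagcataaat
Gbp3: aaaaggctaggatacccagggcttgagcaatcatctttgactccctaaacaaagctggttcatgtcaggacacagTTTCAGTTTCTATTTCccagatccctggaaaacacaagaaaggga
Gbp5: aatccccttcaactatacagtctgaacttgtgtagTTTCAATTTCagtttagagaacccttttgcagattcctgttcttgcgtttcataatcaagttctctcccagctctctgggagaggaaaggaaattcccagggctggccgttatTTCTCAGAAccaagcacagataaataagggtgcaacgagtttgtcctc
Gbp7: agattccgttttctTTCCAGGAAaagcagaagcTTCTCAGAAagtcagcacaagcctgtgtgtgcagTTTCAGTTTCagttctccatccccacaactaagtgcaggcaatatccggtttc
Irgm1: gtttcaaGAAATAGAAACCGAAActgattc
Irgm2: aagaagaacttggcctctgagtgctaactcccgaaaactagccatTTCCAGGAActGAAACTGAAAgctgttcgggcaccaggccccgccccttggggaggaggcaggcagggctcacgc
Igtp: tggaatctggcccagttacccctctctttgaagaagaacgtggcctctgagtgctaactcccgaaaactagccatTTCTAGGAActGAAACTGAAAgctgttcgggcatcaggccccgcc

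In Gbp2, Gbp3, Gbp5 and Gbp7 the ISRE-like match read on the opposite strand to the gene, and in Irgm1, Irgm2 and Igtp it read along the gene. Gbp3 and Irgm1 each held a pair of overlapping ISRE-like matches. In Gbp5 the ISRE-like match lay farthest from the start site, from position -165 to -156 relative to it, and among the other members the farthest was that of Irgm2, from -64 to -55. In Igtp and Irgm2 the GAS match lay 2 bases before the ISRE-like match. These neighbouring genes had almost the same stretch at that place, since 87 of 90 bases were identical (96.7%) at an offset of 30 bases. A second GAS match of Gbp5 lay outside the stretch shown.

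**Figure D1:**
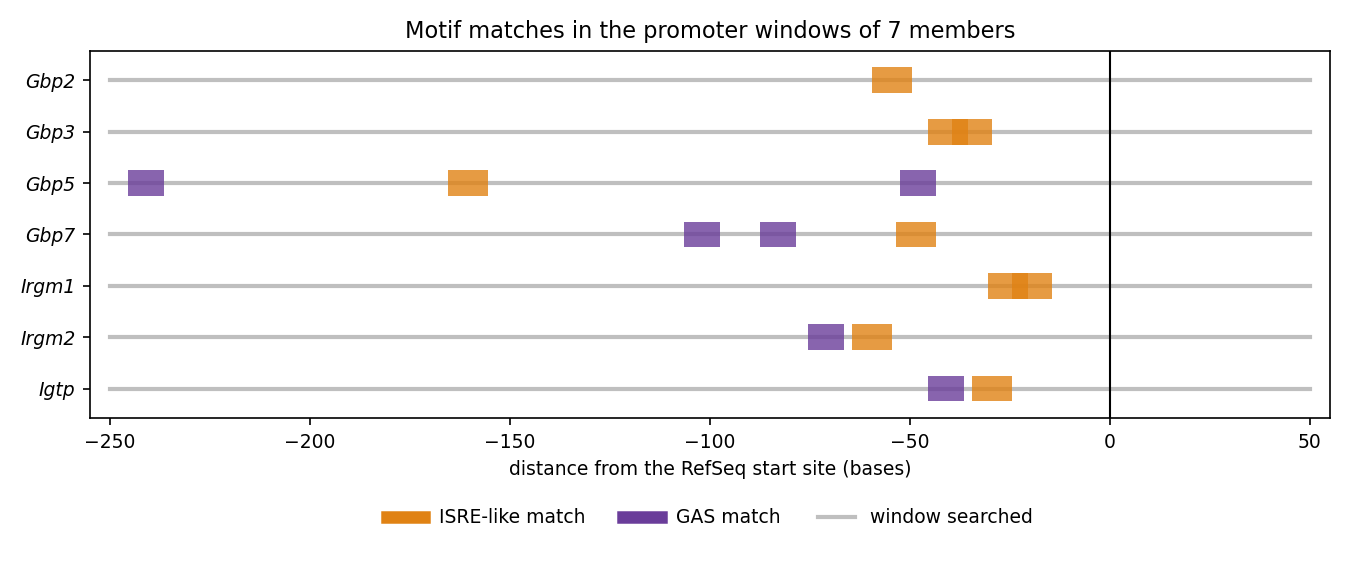
Positions of motif matches in the RefSeq promoter windows of 7 members, with the distance from the start site in bases on the x axis and 1 gene per row. Orange blocks are ISRE-like matches, purple blocks are GAS matches and grey lines are the windows searched, and every row holds an orange block while Gbp5, Gbp7, Irgm2 and Igtp also hold purple ones.

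Each library held between 33616577 and 36817898 counts on genes. Acod1 itself had 69 and 98 counts in the WT vehicle libraries, 6346 and 5908 with PM, and 1087 and 1688 with OI+PM. The libraries labelled Acod1-/- had 46 and 44, 3660 and 3271, and 812 and 871 counts under the same treatments. Reads on Acod1 were present in every library labelled Acod1-/-. The log2 difference of Acod1 from WT was -0.81 (adjusted p = 0.492) with vehicle, -0.80 (adjusted p = 0.0807) with PM and -0.81 (adjusted p = 0.0509) with OI+PM, so it did not pass the threshold. Counts per gene do not show which part of the gene the reads cover, so they do not check the labels. In other measurements the study detected itaconate after PM in WT BMDMs but not in Acod1-/- ones. Its qPCR on alveolar macrophages of the Acod1-/- mice found Acod1 not expressed. All 8 macrophage markers had counts, with a sum between 23189 and 27338 normalized CPM in the PM libraries and between 14278 and 16637 in the other groups, mostly from Lyz2. After PM 5 of the 8 rose in WT and 4 in Acod1-/- cells (12.6% and 12% of all genes), with Lyz2 at 0.96 (SE 0.109) and 1.10 (SE 0.109) on the log2 scale. From PM to OI+PM 6 of the 8 fell in each genotype (22.6% of all genes in WT and 20.6% in Acod1-/- cells) and Cd68 rose in WT, with Fcgr1 at -1.93 (SE 0.0611) and Mertk at -1.10 (SE 0.184) in WT and -2.14 (SE 0.0614) and -1.07 (SE 0.183) in Acod1-/- cells on the log2 scale, where Cd14 was at -1.53 (SE 0.181). Against vehicle, 3 were lower with OI+PM in WT, 2 of them DEGs (Fcgr1 and Mertk), and 4 in Acod1-/- cells, 3 of them DEGs (Cd14 with these), where 31.9% and 26.7% of all genes were lower. In the same comparison 3 markers were higher in WT and 2 in Acod1-/- cells (33.6% and 22.7% of all genes). Among markers of other cells, 4 of 10 for T and NK cells (Cd3e, Cd3g, Gzmb and Nkg7) were at 0 in all libraries, and the sums of the T and NK cell list and of the B cell list reached 1.86 and 4.04 normalized CPM. These sums were lower with OI+PM than with PM, at 0.462 to 0.958 against 1.26 to 1.44 for the T and NK cell list and 0.862 to 1.2 against 2.51 to 4.04 for the B cell list, whose Cd79b fell by 1.60 (SE 0.272) in WT and 1.49 (SE 0.277) in Acod1-/- cells on the log2 scale. Of the 8 granulocyte and mast cell markers, Mcpt4 was at 0 in all libraries, and their sum lay between 4.86 and 5.53 normalized CPM with vehicle, 11.5 and 17.6 with PM, and 29.3 and 61.0 with OI+PM, mostly from S100a8. Both S100a8 and S100a9, the markers of this list that were tested, rose after PM in each genotype. S100a9 of the same list went the other way from PM to OI+PM, with log2 fold changes of -1.93 (SE 0.294, adjusted p = 0.000482) in WT and -1.66 (SE 0.224, adjusted p = 0.000240) in Acod1-/- cells. The highest sums of the dendritic and stromal cell lists were 0.547 and 2.9 normalized CPM, and the stromal sum lay between 1.35 and 2.9 with PM and between 0.338 and 1.26 with OI+PM. The part of these markers in the results was not tested. In bulk RNA, fewer cells expressing a gene and less of its RNA per cell cannot be told apart. The 2 WT libraries with OI+PM, and the 2 with PM, stood further apart than other duplicates, with a chi-square per degree of freedom over genes of 58.5 and 27.3 against 2.61 to 8.32 elsewhere. Their differences followed gene length (Spearman's rho across genes of -0.62 and -0.60). A correction for length changed the call of no member in OI+PM against PM or in PM against vehicle.

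Levels of different genes were compared as normalized CPM per kilobase of exon. In vehicle-treated WT cells the regulators led, with Irgm1 at 8.76 ± 0.121 (SD, n = 2), Igtp at 7.53 ± 0.0582 and Irgm2 at 6.77 ± 0.487. Among the GBPs the order was Gbp2 at 5.89 ± 0.0851, Gbp9 at 3.28 ± 0.141, Gbp3 at 1.99 ± 0.174, Gbp7 at 0.913 ± 0.15 and Gbp5 at 0.207 ± 0.0599. Gbp6 and Iigp1 were last at 0.0173 ± 0.0118 and 0.0133 ± 0.00587, and these were the only neighbours in the order whose libraries overlapped. With PM, Gbp2 passed all the others at 26.1 ± 2.30 per kilobase in WT cells, ahead of Irgm1 at 18.6 ± 0.0122, and Gbp7 and Gbp9 could not be ordered (2.42 ± 0.343 and 2.31 ± 0.491). In Acod1-/- cells with PM, Gbp2 reached 41.7 ± 3.66 per kilobase and Irgm1 19.5 ± 1.67. With OI+PM the regulators led again in both genotypes, although Irgm2 and Gbp2 overlapped in Acod1-/- cells at 5.04 ± 0.180 and 5.04 ± 0.283 per kilobase. Summed over the cluster on chromosome 3 (Gbp2, Gbp3, Gbp5 and Gbp7), WT cells held 9.0 ± 0.12 per kilobase with vehicle, 38.4 ± 3.28 with PM and 4.01 ± 0.126 with OI+PM. The sums of the chromosome 11 regulators were 23.1 ± 0.424, 43.5 ± 0.220 and 18.6 ± 0.0192 per kilobase, so they were above the GBP sums under each treatment in WT cells. In Acod1-/- cells with PM the order was turned, with 60.3 ± 4.84 per kilobase for the GBPs and 49.5 ± 2.93 for the regulators.

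**Figure D2:**
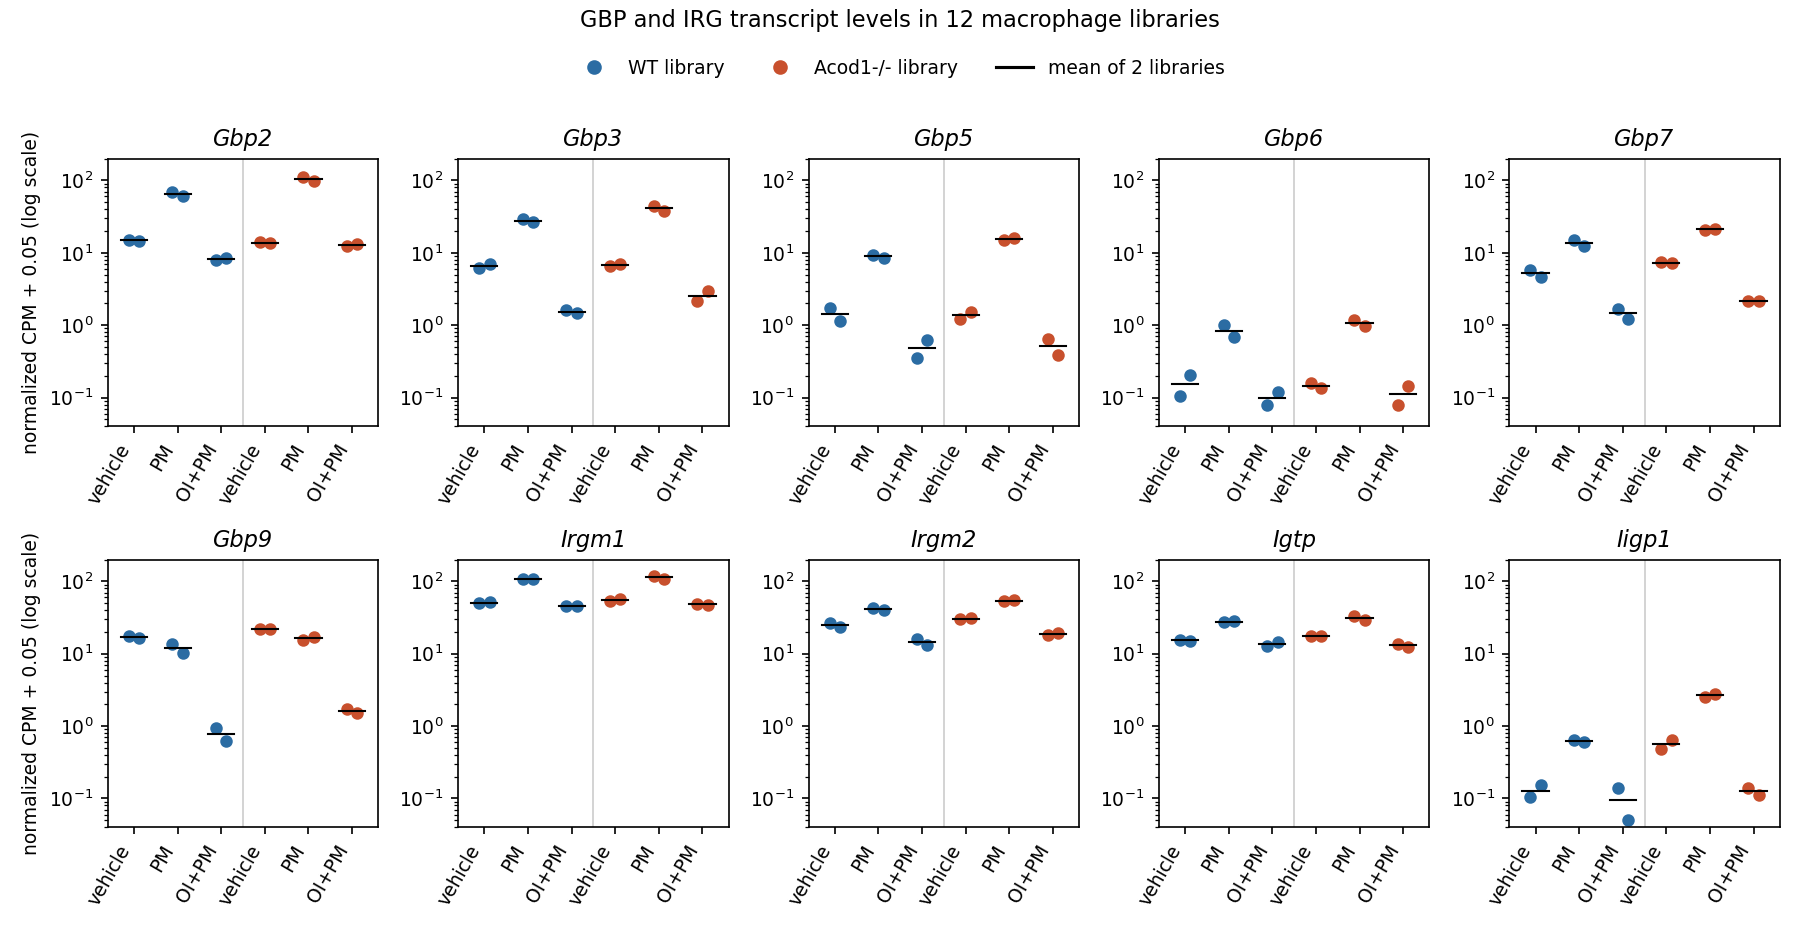
Normalized CPM plus 0.05, on a log scale, of the 10 members in the 12 libraries, with treatments on the x axis, WT libraries in blue, Acod1-/- libraries in orange and black lines at the mean of 2 libraries. All members but Gbp9 peak with PM in both genotypes, and Gbp9 is highest with vehicle and drops to between 0.575 and 1.68 with OI+PM.

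The first question was how PM alone moved these genes. In WT cells 8 of the 9 members tested rose after PM, at an adjusted p of 0.05 or less, where 12.6% of all genes tested rose, and Gbp9 fell, where 12.2% of genes fell. Of these, 6 were DEGs, which also changed at least 2-fold, against 3.02% of genes that were DEGs and higher. In Acod1-/- cells 8 members rose (12% of all genes) and Gbp9 fell (11.9% of all genes), and the same 6 were DEGs (3.19% of all genes). Among the 7 members that were above the filter with vehicle, 6 rose and 4 were DEGs in each genotype. Their median log2 fold change was 1.08 in WT and 1.02 in Acod1-/- cells, against 0.01 and 0.00 for all genes tested.

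Among the members above the filter in all vehicle libraries, Gbp2, Gbp3 and Gbp7 of chromosome 3 rose most. Gbp2 (ENSMUSG00000028270, chr3:142620602-142638008, plus strand), which gathers on vacuoles of intracellular parasites and bacteria, held 15.0 and 14.7 normalized CPM in WT libraries with vehicle and 69.9 and 61.7 with PM. In Acod1-/- libraries it held 13.9 and 13.6 with vehicle and 111 and 98.4 with PM. Both PM libraries of each genotype thus stood far above all vehicle libraries. The rise was 4.44-fold in WT cells (log2 fold change 2.15, SE 0.0925, adjusted p = 3.78e-07) and 7.62-fold in Acod1-/- cells (log2 fold change 2.93, SE 0.0947, adjusted p = 5.88e-08). Gbp3 (ENSMUSG00000028268, chr3:142560026-142573209, plus), a neighbour in the same cluster, went from 6.09 and 6.90 to 29.0 and 26.4 in WT cells and from 6.59 and 6.97 to 44.0 and 37.9 normalized CPM in Acod1-/- cells. Its PM and vehicle libraries did not overlap either, with rises of 4.26-fold (log2 2.09, SE 0.131, adjusted p = 3.29e-06) and 6.04-fold (log2 2.59, SE 0.131, adjusted p = 6.21e-07).

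Gbp5 (ENSMUSG00000105504, chr3:142493978-142522344, plus), which promotes the assembly of inflammasomes, was low with vehicle at 1.66 and 1.09 normalized CPM in WT and 1.18 and 1.47 in Acod1-/- libraries. After PM it stood at 9.26 and 8.45 in WT and 15.1 and 15.7 in Acod1-/- libraries. The rises were 6.44-fold (log2 2.69, SE 0.209, adjusted p = 1.49e-05) and 11.6-fold (log2 3.54, SE 0.206, adjusted p = 1.73e-06), although only 2 of its 4 vehicle libraries were above the filter. Gbp7 (ENSMUSG00000040253, chr3:142530342-142550149, plus), which helps to bring antimicrobial proteins to phagocytosed bacteria, went from 5.72 and 4.53 to 15.0 and 12.3 normalized CPM in WT and from 7.38 and 7.11 to 20.6 and 21.3 in Acod1-/- libraries. The change was smaller than that of its neighbours, at 2.66-fold (log2 1.41, SE 0.141, adjusted p = 7.63e-05) and 2.89-fold (log2 1.53, SE 0.135, adjusted p = 2.72e-05). Of the 50-base stretches in the exons of Gbp7, 12.7% also occur in other genes, mainly Gbp3, Gbp11 and Gm43802, so reads could be divided among them.

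On chromosome 5 the members behaved differently from each other. Gbp9 (ENSMUSG00000029298, chr5:105077630-105139539, minus strand) held 17.5 and 16.4 normalized CPM in WT vehicle libraries and 13.7 and 10.1 with PM. The Acod1-/- libraries held 22.0 and 21.9 with vehicle and 15.6 and 17.0 with PM. The PM libraries were lower than the vehicle libraries in each genotype, but by much less than the other GBPs rose. On the log2 scale they were at -0.51 (SE 0.140, adjusted p = 0.0278) in WT and -0.43 (SE 0.137, adjusted p = 0.0471) in Acod1-/- cells. With 1 library left out, the call held in 1 of 4 cases in WT (adjusted p between 0.00531 and 0.186) and in none of 4 in Acod1-/- cells (0.11 to 0.244). The call was also lost in WT in a fit of the compared groups alone (adjusted p = 0.0515), and in Acod1-/- cells under RLE scaling (0.0506) and without the CPM filter (0.0554, among genes with 10 or more counts). Gbp6 (ENSMUSG00000104713, chr5:105270702-105293698, minus) had 2 and 6 counts with vehicle and 33 and 22 with PM in WT libraries, and 4 and 3 against 39 and 32 in Acod1-/- libraries. The ratio of PM to vehicle was 7.57 (95% counting interval 3.58 to 18.4) in WT and 10.7 (4.93 to 27.6) in Acod1-/- cells. Of its exonic 50-base stretches, 70.7% also occur in other genes, mainly Gm43302 and Gbp10, so this count is uncertain.

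The regulators on chromosome 11 rose by about the same amount in both genotypes. Irgm1 (ENSMUSG00000046879, chr11:48861968-48871683, minus), which protects host membranes and takes part in autophagy, was the most abundant member by CPM with vehicle, at 50.4 and 51.4 in WT and 54.3 and 57.3 in Acod1-/- libraries. With PM it held 108 and 108 normalized CPM in WT and 120 and 107 in Acod1-/- libraries. This was 2.12-fold (log2 1.08, SE 0.0713, adjusted p = 4.59e-06) and 2.03-fold (log2 1.02, SE 0.0711, adjusted p = 5.38e-06), just past the fold threshold of DEGs. Under scaling by total counts Irgm1 rose by less than 2-fold in both genotypes (log2 0.99 and 0.94). It was also under 2-fold in Acod1-/- cells without vehicle replicate 1 (0.99) or PM replicate 1 (0.93).

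Irgm2 (ENSMUSG00000069874, chr11:58199618-58222782, plus), which restrains non-canonical inflammasome activation, went from 26.2 and 23.7 to 42.6 and 40.1 normalized CPM in WT and from 29.8 and 30.9 to 53.5 and 54.6 in Acod1-/- libraries. Its log2 fold changes were 0.73 (SE 0.0963, adjusted p = 0.000469) and 0.83 (SE 0.0956, adjusted p = 0.000163). Igtp (ENSMUSG00000078853, chr11:58199556-58207591, plus), the third regulator, went from 15.3 and 15.1 to 27.3 and 28.1 in WT and from 17.3 and 17.8 to 33.1 and 28.8 in Acod1-/- libraries. It rose by 0.86 (SE 0.0937, adjusted p = 0.000128) and 0.82 (SE 0.0931, adjusted p = 0.000154) on the log2 scale. Vehicle and PM libraries did not overlap for either gene. The exons of Irgm2 and Igtp overlap by 162 bases on the same strand. Of the exonic 50-base stretches of Igtp 11.8% also occur in Irgm2, and of those of Irgm2 7.83% occur in other genes, mainly Igtp, so reads could be divided between them.

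Iigp1 (ENSMUSG00000054072, chr18:60376027-60392634, plus), an effector that loads onto parasite vacuoles, was near the limit of detection in WT cells. It had 2 and 4 counts with vehicle and 21 and 19 with PM in WT libraries. The libraries labelled Acod1-/- had 16 and 21 counts with vehicle and 85 and 94 with PM. Within each genotype the PM libraries were above those with vehicle, and Acod1-/- vehicle libraries were about as high as WT libraries with PM. Since Iigp1 passed the filter through the Acod1-/- PM libraries alone, a high level there was part of its selection. The rise after PM was 7.06-fold in WT (log2 2.82, SE 0.494, adjusted p = 0.00282) and 5.08-fold in Acod1-/- cells (log2 2.34, SE 0.255, adjusted p = 0.000115).

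The next comparison asked what OI given before PM did to these levels. All 9 members tested fell at least 2-fold from PM to OI+PM in both genotypes, where 8.49% of all genes tested were DEGs and lower in WT and 7.98% in Acod1-/- cells. Among the 7 members above the filter with vehicle, all 7 fell in each genotype. Their median log2 fold change was -3.02 in WT and -3.05 in Acod1-/- cells, against 0.02 and 0.00 for all genes tested. With any 1 of the 4 libraries left out, each of the 9 still had an adjusted p of 0.05 or less in both genotypes. Igtp in WT cells was then just under 2-fold without PM replicate 2 (log2 -0.99) or OI+PM replicate 1 (log2 -0.93).

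The GBPs fell by more than the regulators. Gbp2 held 7.82 and 8.46 normalized CPM in WT and 12.2 and 13.2 in Acod1-/- libraries with OI+PM, which was 8.08-fold lower than with PM in WT (log2 -3.02, SE 0.0989, adjusted p = 1.07e-08) and 8.27-fold lower in Acod1-/- cells (log2 -3.05, SE 0.0958, adjusted p = 8.02e-09). Gbp3 held 1.56 and 1.42 in WT and 2.07 and 2.9 in Acod1-/- libraries, 18.5-fold lower (log2 -4.21, SE 0.162, adjusted p = 2.71e-08) and 16.5-fold lower (log2 -4.04, SE 0.15, adjusted p = 2.20e-08). No OI+PM library came near a PM library for these genes. Gbp5 dropped to 10 and 17 counts in WT and 20 and 11 in Acod1-/- libraries, or 0.30 to 0.601 normalized CPM, 20.4-fold lower (log2 -4.35, SE 0.267, adjusted p = 6.88e-07) and 32.5-fold lower (log2 -5.02, SE 0.249, adjusted p = 1.46e-07). Gbp7 held 1.62 and 1.18 in WT and 2.13 and 2.13 normalized CPM in Acod1-/- libraries, 9.63-fold lower (log2 -3.27, SE 0.174, adjusted p = 2.42e-07) and 9.81-fold lower (log2 -3.29, SE 0.159, adjusted p = 1.20e-07). The sum over the chromosome 3 cluster with OI+PM lay below that with vehicle in both genotypes. Per kilobase it was 4.01 against 9.0 in WT and 6.25 against 9.04 in Acod1-/- cells. These sums were not tested, and Gbp2 in Acod1-/- cells did not pass against vehicle (log2 -0.12).

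Gbp9, which PM had not raised, also fell, by an amount within the range of the chromosome 3 GBPs in each genotype. It had 30 and 17 counts in WT and 56 and 48 in Acod1-/- libraries with OI+PM, or 0.898 and 0.575 against 1.68 and 1.48 normalized CPM. The fall from PM was 16.0-fold (log2 -4.0, SE 0.211, adjusted p = 2.28e-07) in WT and 10.3-fold (log2 -3.36, SE 0.181, adjusted p = 2.73e-07) in Acod1-/- cells. Gbp6 had 1 and 2 counts in WT and 1 and 3 in Acod1-/- libraries with OI+PM. Its ratio of PM to OI+PM was 16.6 (95% counting interval 5.38 to 82.8) in WT and 17.0 (6.34 to 64.0) in Acod1-/- cells. Without the CPM filter, among genes with at least 10 counts in total, Gbp6 also passed the test for PM against vehicle (log2 2.87, adjusted p = 0.00144 in WT, and 3.38, adjusted p = 0.000346 in Acod1-/- cells) and for OI+PM against PM (-3.94, adjusted p = 0.000273, and -3.99, adjusted p = 0.000114).

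The regulators fell by less. Irgm1 held 45.3 and 45.7 normalized CPM in WT and 49.3 and 47.4 in Acod1-/- libraries with OI+PM, 2.37-fold (log2 -1.25, SE 0.0719, adjusted p = 4.41e-07) and 2.35-fold (log2 -1.23, SE 0.0717, adjusted p = 4.85e-07) below PM. Irgm2 held 16.1 and 13.0 in WT and 18.1 and 19.1 in Acod1-/- libraries, 2.84-fold (log2 -1.50, SE 0.100, adjusted p = 1.25e-06) and 2.91-fold (log2 -1.54, SE 0.0987, adjusted p = 9.95e-07) below PM. Igtp held 12.9 and 14.5 in WT and 13.7 and 12.3 in Acod1-/- libraries, 2.02-fold (log2 -1.01, SE 0.0954, adjusted p = 1.63e-05) and 2.37-fold (log2 -1.25, SE 0.0954, adjusted p = 3.64e-06) below PM. For all 3 genes every OI+PM library lay below both vehicle libraries of its genotype.

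Iigp1 all but disappeared, with 3 and 0 counts in WT and 3 and 2 in Acod1-/- libraries with OI+PM. The count of 0 allows up to 0.101 normalized CPM, and such limits and intervals cover counting error only. The ratio of PM to OI+PM was 12 (95% counting interval 3.84 to 60.9) in WT and 34.2 (14.4 to 107) in Acod1-/- cells. The test gave an adjusted p of 0.0009 in WT and 3.51e-06 in Acod1-/- cells. Its high level in the Acod1-/- PM libraries had let it pass the filter, so a fall from that group was partly built into its selection. The size in WT depended on single libraries, as the fitted log2 value of -3.50 became -2.63 without OI+PM replicate 2, and -7.33 without OI+PM replicate 1, which leaves the library at 0 counts and gives no bound.

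**Figure D3:**
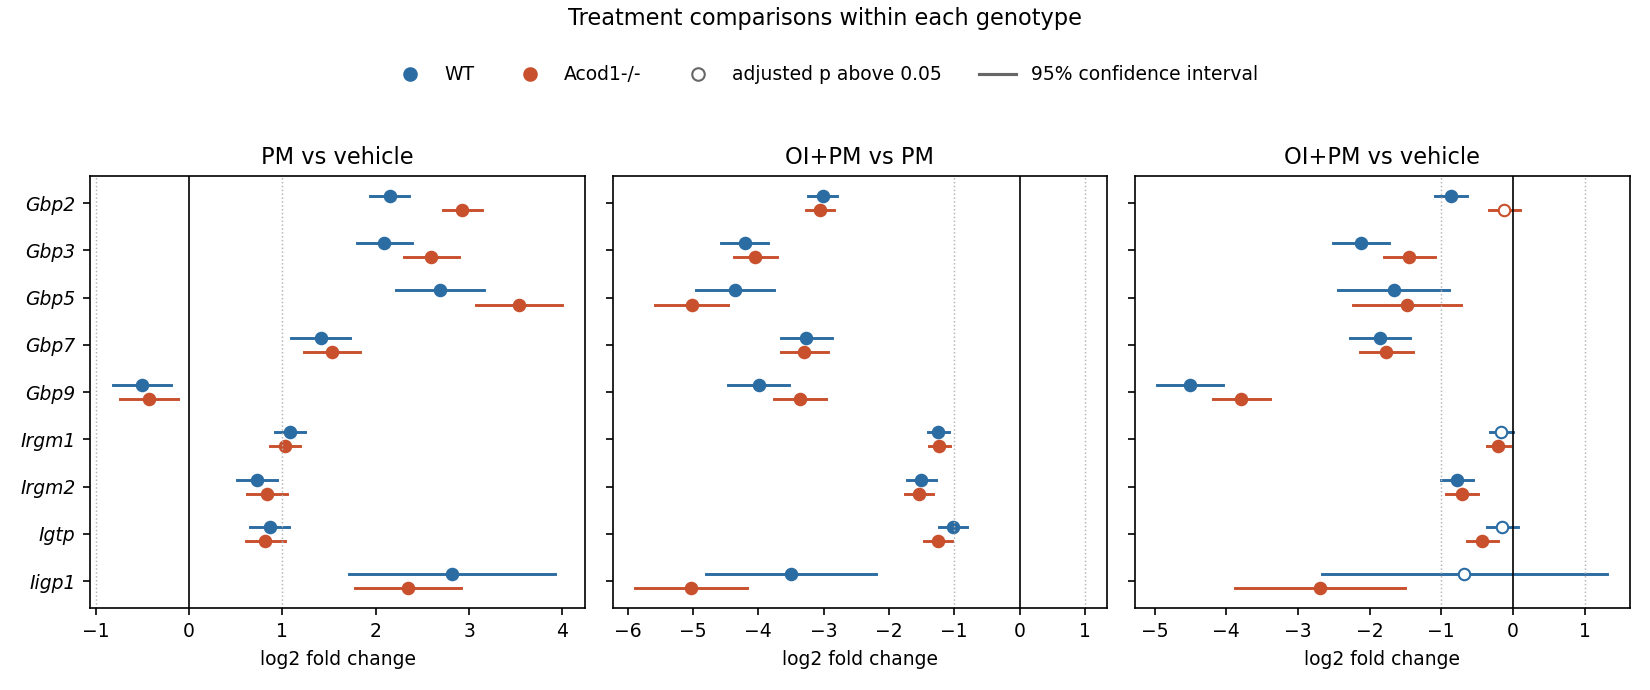
Log2 fold changes of the 9 members tested in 3 treatment comparisons, with WT in blue, Acod1-/- in orange, lines for 95% confidence intervals, open circles for an adjusted p above 0.05 and dotted lines at a 2-fold change. All points of OI+PM against PM lie below -1, and in OI+PM against vehicle Gbp9 lies lowest at -4.50 and -3.79.

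Set against vehicle, OI+PM left part of the family below its starting level. In WT cells 6 of the 9 members tested fell (31.9% of all genes tested fell) and 4 were DEGs and lower (10.7% of all genes). In Acod1-/- cells 8 fell (26.7% of all genes) and 5 were DEGs and lower (9.25% of all genes). Those shares of all genes are high, and no member rose in either genotype. Among the 7 members above the filter with vehicle, 5 fell in WT and 6 in Acod1-/- cells, with 3 DEGs in each.

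Gbp9 stood out by size. Its log2 fold change against vehicle was -4.50 (SE 0.206, adjusted p = 5.87e-08) in WT, or 22.7-fold, and -3.79 (SE 0.179, adjusted p = 7.83e-08) in Acod1-/- cells, or 13.8-fold. Gbp3 fell by 2.12 (SE 0.175, adjusted p = 4.39e-06) and 1.45 (SE 0.160, adjusted p = 4.08e-05) on the log2 scale, Gbp7 by 1.86 (SE 0.187, adjusted p = 1.86e-05) and 1.76 (SE 0.168, adjusted p = 1.39e-05), and Gbp5 by 1.67 (SE 0.344, adjusted p = 0.00210) and 1.48 (SE 0.338, adjusted p = 0.00489), in WT and Acod1-/- cells. Without replicate 2 of the Acod1-/- libraries with OI+PM, the adjusted p of Gbp5 in that genotype was 0.0503. Gbp2 fell by 0.87 (SE 0.0995, adjusted p = 4.83e-05) in WT, whereas in Acod1-/- cells it was at -0.12 (SE 0.0961, adjusted p = 0.321). In WT it became a DEG under scaling by total counts (log2 -1.09) and with the correction for length (log2 -1.11).

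Among the regulators Irgm2 fell by 0.78 (SE 0.101, adjusted p = 0.000110) in WT and by 0.71 (SE 0.0987, adjusted p = 0.000221) in Acod1-/- cells on the log2 scale. Irgm1 was at -0.16 (SE 0.0716, adjusted p = 0.0697) in WT and -0.21 (SE 0.0714, adjusted p = 0.0364) in Acod1-/- cells. Igtp was at -0.15 (SE 0.0968, adjusted p = 0.193) in WT and -0.43 (SE 0.0965, adjusted p = 0.00448) in Acod1-/- cells. These small values turn on how libraries are scaled, because scaling by total counts lowers every log2 fold change of this comparison by 0.223 in WT and 0.149 in Acod1-/- cells. Under it Irgm1 (-0.38, adjusted p = 0.00132) and Igtp (-0.37, adjusted p = 0.00418) in WT and Gbp2 (-0.27, adjusted p = 0.0359) in Acod1-/- cells passed the threshold too, in fits where 45.5% and 36.6% of all genes were lower. With the correction for length Igtp in WT cells was at -0.46 (adjusted p = 0.00116) and Irgm1 in Acod1-/- cells at -0.15 (adjusted p = 0.0911). The filter mattered too, since Irgm1 in WT passed when CPM above 1.5 was asked of all libraries. In Acod1-/- cells it did not pass among genes with at least 10 counts in total. The call of Irgm1 in Acod1-/- cells was lost with any 1 of the 4 libraries left out (adjusted p between 0.0722 and 0.197). For Iigp1 the ratio of OI+PM to vehicle was 0.609 (95% counting interval 0.0986 to 2.85) in WT, from 3 against 6 counts, and 0.149 (0.0458 to 0.381) in Acod1-/- cells, from 5 against 37 counts (adjusted p = 0.527 and 0.00210).

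The study also asked whether the cell's own Acod1 matters, which sets libraries labelled Acod1-/- against WT libraries under the same treatment. With vehicle, Iigp1 alone of the 9 members was called, as higher and as a DEG. Of all genes tested 0.891% were higher and 0.249% were DEGs and higher. Among the 7 members above the filter with vehicle, 0 were called. Iigp1 had passed the filter through the Acod1-/- PM libraries alone, so its place among the genes tested depended on that genotype. The difference was 6.28-fold (log2 2.65, SE 0.504, adjusted p = 0.0293), from 37 against 6 counts. It passed the threshold in none of the 4 fits that left out a library (adjusted p between 0.112 and 0.264), with a log2 value between 2.28 and 3.17. Gbp7 was at 0.50 (SE 0.146, adjusted p = 0.173), Gbp9 at 0.37 (SE 0.136, adjusted p = 0.329), Irgm2 at 0.28 (SE 0.0967, adjusted p = 0.281), Igtp at 0.20 (SE 0.0948, adjusted p = 0.520) and Irgm1 at 0.13 (SE 0.0711, adjusted p = 0.656). A fit of the compared groups alone also passed Gbp7 (adjusted p = 0.00151), Gbp9 (3.82e-05), Irgm1 (0.0406), Irgm2 (0.000381) and Igtp (0.0335), with nearly the same log2 values, but 10.4% of all genes were higher in that fit. DESeq2 passed 1 member (1.23% of all genes higher). With the correction for length and the replicate block, Gbp7 also passed (adjusted p = 0.0454), where 1.57% of all genes were higher. Gbp2 (-0.10), Gbp3 (0.06) and Gbp5 (-0.05) were closest to 0, and the 95% confidence interval of Gbp2 ran from -0.32 to 0.11.

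With PM, 5 members were higher in Acod1-/- libraries (1.1% of all genes tested were) and 1 was a DEG (0.258% of all genes). Among the 7 members above the filter with vehicle, 3 were higher and 0 were DEGs. The DEG, Iigp1, had passed the filter through the Acod1-/- PM libraries alone, so its place among the genes tested depended on a high level there. Iigp1 was 4.51-fold higher (log2 2.17, SE 0.252, adjusted p = 0.00194), from 179 against 40 counts. Gbp2 was higher by 0.67 (SE 0.0861, adjusted p = 0.00334), and both Acod1-/- libraries exceeded both WT libraries. The call of Gbp2 held with any 1 library left out. Gbp5 was higher by 0.80 (SE 0.164, adjusted p = 0.0349), Gbp7 by 0.62 (SE 0.129, adjusted p = 0.0382) and Gbp3 by 0.56 (SE 0.119, adjusted p = 0.0392). Gbp3 and Gbp5 lost the call in all 4 fits without a library (adjusted p up to 0.282 and 0.237), and Gbp7 in 3 of 4 (up to 0.239). With the replicate block the adjusted p of Gbp3 was 0.0501. Gbp9 at 0.45 (SE 0.141, adjusted p = 0.164), Irgm2 at 0.39 (SE 0.0945, adjusted p = 0.0716), Igtp at 0.16 (SE 0.0913, adjusted p = 0.487) and Irgm1 at 0.07 (SE 0.0700, adjusted p = 0.708) did not pass in edgeR. DESeq2 passed Irgm2 as well (adjusted p = 0.0139), where 1.83% of all genes were higher, and with the correction for length its adjusted p was 0.0425 (2.54% of all genes higher). The interval of Irgm1 ran from -0.08 to 0.23 on the log2 scale. Of the cell type markers, Adgre1 of macrophages was also higher in Acod1-/- libraries, by 0.45 (SE 0.0754) with vehicle, 0.53 (SE 0.0755) with PM and 0.59 (SE 0.0756) with OI+PM, S100a9 was higher by 0.94 (SE 0.204) with PM, and Cd68 was at -0.37 (SE 0.0747) with OI+PM. Their part in the genotype differences was not tested.

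With OI+PM, Gbp2 and Gbp9 were higher in Acod1-/- libraries (2.51% of all genes tested were), and Gbp9 was a DEG (0.33% of all genes). Gbp9 was 2.12-fold higher (log2 1.08, SE 0.276, adjusted p = 0.0457), and this call was lost in 3 of 4 fits without a library (adjusted p up to 0.233). Gbp2 was higher by 0.64 (SE 0.101, adjusted p = 0.00829), and lost the call without replicate 2 of the Acod1-/- libraries (adjusted p = 0.0823). Both were among the 7 members above the filter with vehicle. DESeq2 passed 4 members, Gbp3 (adjusted p = 0.0167) and Irgm2 (0.0319) with these, and the correction for length passed the same pair in edgeR (0.0320 and 0.0392). The shares of all genes that were higher were 4.83% in DESeq2 and 6.96% with that correction. Gbp3 also passed under scaling by total counts, where 3.67% of all genes were higher. Without replicate 1 of the WT libraries Gbp3, Gbp7 and Irgm2 passed as well (adjusted p = 0.0367, 0.0323 and 0.00291), but 20.3% of all genes were higher in that fit. In a fit of the compared groups alone neither Gbp2 nor Gbp9 passed (0.256 for Gbp2 and 0.330 for Gbp9), where 0.0178% of all genes were higher. Gbp3 was at 0.73 (SE 0.200, adjusted p = 0.0566), Gbp7 at 0.59 (SE 0.214, adjusted p = 0.113), Irgm2 at 0.35 (SE 0.102, adjusted p = 0.0660), Gbp5 at 0.13 (SE 0.438, adjusted p = 0.850), Irgm1 at 0.09 (SE 0.0718, adjusted p = 0.40) and Igtp at -0.07 (SE 0.0984, adjusted p = 0.614). Iigp1 had 5 against 3 counts, a ratio of 1.60 (95% counting interval 0.311 to 10.3). Gbp6 differed between the genotypes by ratios of 0.925 (0.285 to 2.92) with vehicle, 1.31 (0.907 to 1.90) with PM and 1.28 (0.216 to 8.72) with OI+PM, all with intervals that include 1.

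**Figure D4:**
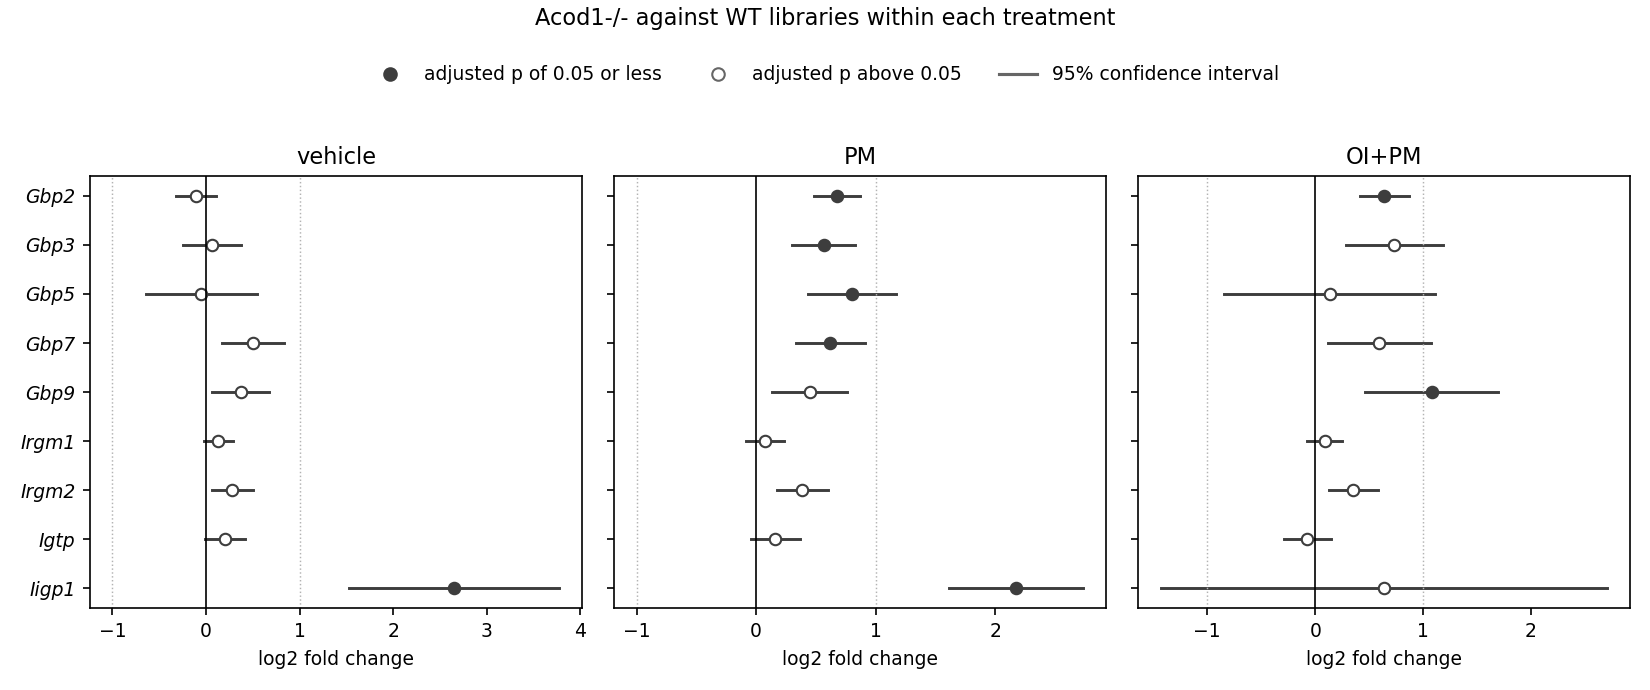
Log2 fold change of libraries labelled Acod1-/- against WT libraries for the 9 members tested, with vehicle, PM and OI+PM, lines for 95% confidence intervals and open circles for an adjusted p above 0.05. Iigp1 is far to the right with vehicle (2.65) and PM (2.17), and the regulators Irgm1 and Igtp lie between -0.07 and 0.20 in all panels.

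Whether the genotypes differed in the effect of PM or of OI was tested as an interaction. For the effect of PM, 0 of the 9 members tested passed in edgeR, as did 0% of all genes. The unadjusted p was under 0.05 for 3 members and for 2.43% of all genes. Their rise was larger in Acod1-/- cells by 0.78 for Gbp2 (SE 0.128), by 0.85 for Gbp5 (SE 0.312) and by 0.50 for Gbp3 (SE 0.183) on the log2 scale, all with an adjusted p of 0.9998 in edgeR. DESeq2 passed 1 member, Gbp2 (adjusted p = 0.0101), where 0.0178% of all genes were higher. Iigp1 differed by -0.48 (SE 0.592), so its higher level in libraries labelled Acod1-/- was not shown to depend on PM. For the effect of OI, 0 members passed in edgeR (0% of all genes), 0 had an unadjusted p under 0.05 (6.39% of all genes), and DESeq2 passed 0. The differences ran from -1.54 for Iigp1 (SE 1.11) to 0.63 for Gbp9 (SE 0.312).

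Other genes of the families were taken as a list of 18, of which 8 passed the filter. After PM 4 of these rose and 1 fell in WT cells (12.6% and 12.2% of all genes) and 3 rose in Acod1-/- cells (12% of all genes). The gene that fell in WT was 9930111J21Rik1, a DEG at -1.07 on the log2 scale (1.13% of all genes were DEGs and lower). Its mean went from 5.53 to 2.64 normalized CPM, with the PM libraries at 1.56 and 3.71. In Acod1-/- cells it went from 5.84 to 4.19 and did not pass. Of the genes named here, Tgtp2 and Gm4951 passed the filter through the Acod1-/- PM libraries alone, so a high level there was part of their selection. In both genotypes the highest rises were those of Tgtp2, an effector IRG, at 1.89 (SE 0.339) and 2.42 (SE 0.325), Gm4951, an IRG gene beside Iigp1, at 1.88 (SE 0.305) and 1.74 (SE 0.194), and Gm12250, which encodes the effector IRGB10, at 1.35 (SE 0.113) and 1.60 (SE 0.112). From PM to OI+PM 6 of 8 fell in each genotype, all of them DEGs (8.49% and 7.98% of all genes were DEGs and lower). The log2 fold changes in WT and Acod1-/- cells were -3.56 (SE 0.145) and -3.21 (SE 0.132) for Gm12250, -3.27 (SE 0.441) and -3.67 (SE 0.402) for Tgtp2, and -2.95 (SE 0.182) and -2.46 (SE 0.168) for Gm5431. Gm4951 went from 71 to 1 count in WT and from 245 to 3 in Acod1-/- cells, ratios of 64.1 (95% counting interval 11.1 to 2568) and 78.0 (26.4 to 381). Against vehicle, 5 of the 8 were lower with OI+PM in each genotype, and these 5 were DEGs (10.7% and 9.25% of all genes).

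Gm4951, which like Iigp1 was tested through its level in the Acod1-/- PM libraries, was also higher in Acod1-/- libraries. It had 12 and 9 counts in WT and 41 and 36 in Acod1-/- libraries with vehicle, and 41 and 30 against 115 and 130 with PM. The log2 differences were 1.94 (SE 0.301, adjusted p = 0.010) and 1.80 (SE 0.197, adjusted p = 0.00142). F830016B08Rik, an IRG gene of the same stretch of chromosome 18, had too few counts to be tested, with 3 and 1 in WT against 7 and 8 in Acod1-/- libraries with vehicle and 3 and 1 against 10 and 21 with PM. This gene was singled out after its values were seen.

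Genes of the interferon pathway were read from a list of 19 receptors, kinases, transcription factors and feedback genes, of which 16 passed the filter. Ifng was at 0 counts in all libraries, and Ifnb1 had between 0 and 3 counts in total in each group. After PM 8 rose and 1 fell in WT cells (12.6% and 12.2% of all genes), and 9 rose and 0 fell in Acod1-/- cells (12% and 11.9%). The largest rises in WT cells were those of Socs3 and Usp18, which restrain cytokine and interferon receptors, at 3.42 (SE 0.269) and 2.65 (SE 0.142), and of Irf7 at 2.36 (SE 0.109). In Acod1-/- cells they were those of Socs3 at 3.42 (SE 0.233), Usp18 at 2.12 (SE 0.139), Irf7 at 2.11 (SE 0.107) and Irf1 at 1.15 (SE 0.0655). From PM to OI+PM 10 of 16 fell in each genotype (22.6% and 20.6% of all genes), and 1 rose in WT. Usp18 fell by 4.14 (SE 0.169) and 3.99 (SE 0.168) and Irf7 by 2.87 (SE 0.114) and 3.19 (SE 0.115) on the log2 scale. Against vehicle, 8 were lower and 3 higher with OI+PM in WT (31.9% and 33.6% of all genes), and 8 lower and 4 higher in Acod1-/- cells (26.7% and 22.7%). Among these, Usp18 fell furthest, at -1.50 in WT and -1.87 in Acod1-/- cells on the log2 scale. Irf9, part of the complex that binds ISRE motifs, was at -1.21 (SE 0.0648) in WT and -1.26 (SE 0.0645) in Acod1-/- cells. Socs3 was at 2.46 (SE 0.306) and 0.86 (SE 0.316). Irf1 stayed above its vehicle level, unlike the members, with means of 80.0 normalized CPM with OI+PM against 50.1 with vehicle in WT. In Acod1-/- cells its means were 91.4 against 57.4.

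Between genotypes 1 of the 16 was higher with vehicle, 3 with PM and 2 with OI+PM (0.891%, 1.1% and 2.51% of all genes). In libraries labelled Acod1-/-, Ifngr1, a chain of the interferon gamma receptor, was higher by 0.25 (SE 0.0515, adjusted p = 0.0440) with vehicle, by 0.37 (SE 0.0515, adjusted p = 0.00510) with PM and by 0.34 (SE 0.0517, adjusted p = 0.00713) with OI+PM. Ifnar1, of the type I receptor, was higher by 0.36 (SE 0.0696, adjusted p = 0.0272) with PM and by 0.35 (SE 0.0700, adjusted p = 0.0202) with OI+PM. Irf1, which activates many GBP genes, was higher by 0.43 (SE 0.0645, adjusted p = 0.00738) with PM. Its part in the levels of the members was not tested. No gene of this list passed as lower in edgeR. Socs3 had larger differences that did not pass, with vehicle at 0.68 (SE 0.385; adjusted p = 0.694), after PM at 0.69 (SE 0.170; adjusted p = 0.0743) and after OI+PM at -0.92 (SE 0.254; adjusted p = 0.0592).

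**Figure D5:**
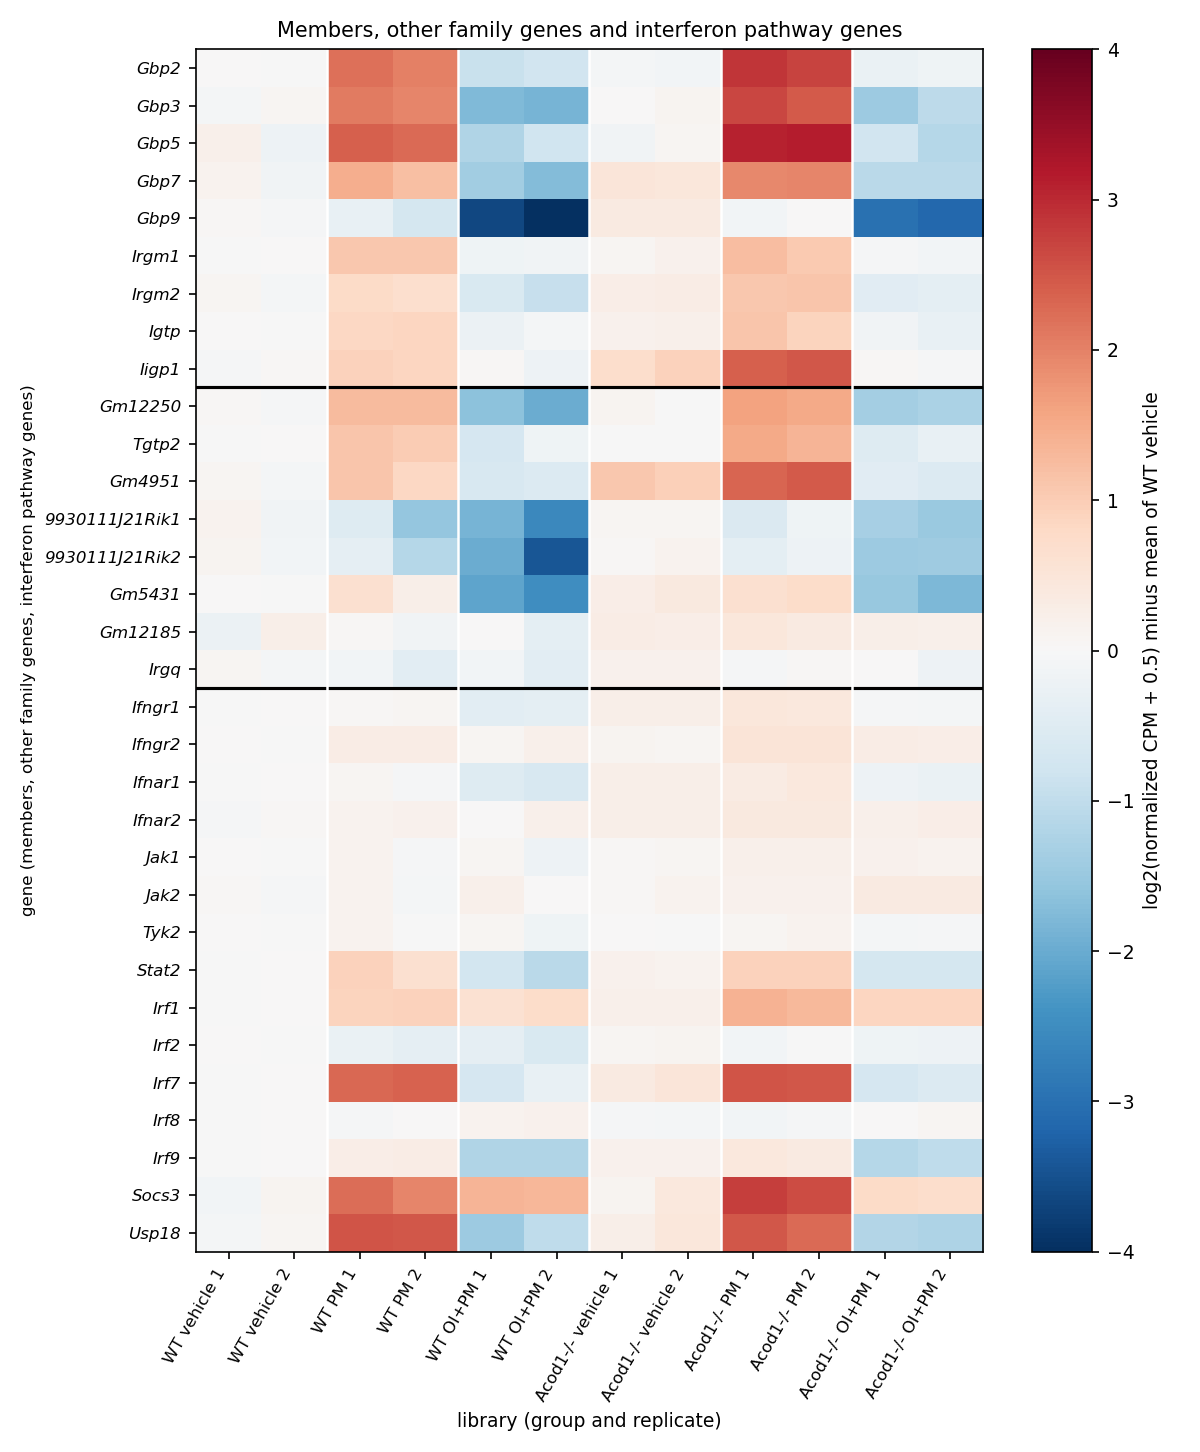
Difference of log2(normalized CPM + 0.5) from the mean of the WT vehicle libraries, for the 9 members tested, 8 other family genes and genes of the interferon pathway (rows) in 12 libraries (columns), with red for higher and blue for lower values and black lines between the gene groups. Higher PM columns and lower OI+PM columns recur from the members to Gm12250, Irf7 and Usp18.

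The 10 genes outside the members whose log2 CPM followed the members' mean profile most closely over the 12 libraries, out of 9565 genes ranked, included Parp12, Apobec3, Ifit2, Marcksl1, Samsn1, Ifit1, Ddx58, Ifit3 and Ccl9. Their Pearson's r lay between 0.985 and 0.992, a description over libraries that share 6 groups. By Spearman's rho the leading 10 genes held 0 of these. Of the members, Gbp3, Irgm2 and Gbp7 were nearest to the mean profile (r = 0.99 each), Iigp1 was at 0.90, and Gbp9, with its high vehicle level, was the farthest at 0.73. Each tested member is itself part of that mean, which raises its r.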

How the data were processed

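BMDM RNA of 12 libraries was sequenced by the authors as single-end reads of 50 bp, checked with FastQC 0.11.5 and Picard 2.9.0, mapped to GRCm38 with STAR 2.5.3a and counted per gene with featureCounts, as the methods and the submitters' processing notes give it. Deposited were 12 tables of raw counts, 1 per library and not normalized. The handling of strand and of reads with several positions is not given in the sources used here. Groups came from the labels. Counts were fitted in edgeR 4.0.16 (R 4.3.3) by its quasi-likelihood test with TMM scaling, a mean for each of 6 groups and Benjamini-Hochberg adjustment over the 11228 genes with CPM above 1.5 in at least 2 libraries. A gene rose or fell at an adjusted p of 0.05 or less, and DEGs also changed at least 2-fold, the thresholds of the methods. SE was taken as the absolute log2 value over the root of its F statistic. Symbols, positions and exonic lengths came from a GENCODE annotation of GRCm38, which matched 48435 of the 48795 identifiers. Normalized CPM are counts scaled by the TMM library size. The tests were tested on simulated data. The members and lists were chosen with earlier results of these data known. Named were all members, Acod1, genes of the most similar profile and, as a rule, up to 4 genes per list and comparison. The latter were taken from the largest changes among those past the threshold. Some other genes are named too, such as Socs3 between genotypes, which did not pass. The alternatives were DESeq2 1.42.0, fits of only the compared groups, scaling by RLE or by total counts, other filters, no fold threshold, a replicate block, a correction for gene length, that correction with the block, Spearman in place of Pearson, and leaving out each library. A crossed pairing was added after seeing the data. Values of some listed genes are not reported here.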

Additional observations from a re-analysis of the deposited data

How the results depend on the processing

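The 12 libraries gave 2 per group, so calls near the threshold rest on few values, and members with 20 counts or fewer in a library (Gbp6, Iigp1, and Gbp5 and Gbp9 with OI+PM) were limited by depth. Asking for CPM above 1.5 in all libraries left 4 members to test (Gbp2, Irgm1, Irgm2 and Igtp). PM against vehicle then gave 2 DEGs in WT and 2 in Acod1-/- cells, OI+PM against PM 4 and 4, OI+PM against vehicle 0 and 0, and Acod1-/- against WT 0 with vehicle, 0 with PM and 0 with OI+PM. With no fold threshold the counts were 9 for PM against vehicle in each genotype (6 with it), 6 for OI+PM against vehicle in WT (4 with it) and 8 in Acod1-/- cells (5 with it), and 5 with PM (1 with it) and 2 with OI+PM (1 with it) for Acod1-/- against WT. With OI+PM, that genotype comparison gave 0 in a fit of the compared groups alone. Leaving out 1 library gave 0 to 0 for Acod1-/- against WT with vehicle and 0 to 1 with OI+PM, where it was 0 without WT replicate 2, Acod1-/- replicate 1 or Acod1-/- replicate 2.

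The log2 fold change of Igtp for Acod1-/- against WT with OI+PM changed sign to 0.000559 under total count scaling, to 0.0798 with the length correction and to 0.0783 with that correction and the replicate block. With 1 library left out, signs changed for Iigp1 in OI+PM against vehicle in WT (-4.51 to 0.19) and in the OI effect between genotypes (-2.40 to 2.30). For Acod1-/- against WT they changed with vehicle for Gbp3 (-0.0252 to 0.15) and Gbp5 (-0.32 to 0.27), with PM for Irgm1 (-0.0168 to 0.16), and with OI+PM for Gbp5 (-0.34 to 0.65), Igtp (-0.16 to 0.0106) and Iigp1 (-0.23 to 4.47). None of these was called in the main values, and the cause was not tested. Interaction values near 0 that the report does not print also changed sign in some settings (for the PM effect Gbp7, Gbp9, Irgm1 and Igtp, for the OI effect Gbp2, Gbp3, Gbp7, Irgm1 and Irgm2) and are not counted here. Of the members' other log2 fold changes in the report, 715 kept direction and side of the threshold, 24 became called and 9 lost the call across these settings, and 327, 3 and 31 did so with a library left out.

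The replicate numbers are not said to mark a shared mouse or day, and same-numbered libraries did not deviate together throughout (correlations from -0.45 to 0.78). With the replicate block the counts of DEGs among the members were 6 and 6 for PM against vehicle, 9 and 9 for OI+PM against PM, and 1 for Acod1-/- against WT with PM, where Gbp3 had an adjusted p of 0.0501. With the numbers of the Acod1-/- PM libraries crossed in the block, an alternative chosen after seeing the data, 65 genes were DEGs for Acod1-/- against WT with PM and 1111 for OI+PM against PM in Acod1-/- cells. Irgm2 also passed the adjusted p threshold for Acod1-/- against WT with PM in that fit, where 1.65% of all genes were higher.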

Other observations

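The ATG8 conjugation system of autophagy leads GBPs and IRGs to vacuoles. Of 11 such genes, 3 rose after PM in each genotype (12.6% and 12% of all genes), among them Atg5 by 0.32 (SE 0.0714, adjusted p = 0.0101) in WT and 0.47 (SE 0.0715, adjusted p = 0.000965) in Acod1-/- cells on the log2 scale. From PM to OI+PM, where all 9 members tested fell, 7 of the 11 rose in WT and 3 in Acod1-/- cells and 0 fell in either, where 21.3% and 13.9% of all genes rose. Gabarapl1, an ATG8 protein, rose by 1.19 (SE 0.0669, adjusted p = 3.69e-07) in WT and by 1.01 (SE 0.0667, adjusted p = 1.21e-06) in Acod1-/- cells. Against vehicle, 10 of the 11 were higher with OI+PM in WT and 7 in Acod1-/- cells (33.6% and 22.7% of all genes). No gene of this list passed for Acod1-/- against WT in edgeR under any of the 3 treatments.

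Of 7 inflammasome and pyroptosis genes, 5 rose after PM in each genotype (12.6% and 12% of all genes). Casp4, which encodes the sensor of cytosolic lipopolysaccharide that GBPs help to activate, rose by 1.25 (SE 0.166, adjusted p = 0.000469) in WT and 1.33 (SE 0.165, adjusted p = 0.000279) in Acod1-/- cells. From PM to OI+PM 2 of the 7 fell and 1 rose in WT (22.6% and 21.3% of all genes), and 4 fell and 1 rose in Acod1-/- cells (20.6% and 13.9%). Casp4 fell by 0.59 (SE 0.163, adjusted p = 0.0146) in WT and by 1.23 (SE 0.165, adjusted p = 0.000221) in Acod1-/- cells, and Nlrp3 fell by 0.92 (SE 0.0877, adjusted p = 1.83e-05) and 1.09 (SE 0.0876, adjusted p = 5.48e-06). Pycard and Gsdmd fell in Acod1-/- cells, by 0.42 (SE 0.139, adjusted p = 0.0386) and 0.38 (SE 0.0975, adjusted p = 0.0131), and were at -0.28 (SE 0.139, adjusted p = 0.123) and -0.22 (SE 0.0973, adjusted p = 0.0957) in WT. Aim2, a sensor of cytosolic DNA, rose instead, by 0.38 (SE 0.0684, adjusted p = 0.00140) and 0.35 (SE 0.0685, adjusted p = 0.00285).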
